A study of Mus musculus with 2 samples.

Results

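B cells were identified among the single islet cells of virgin and multiparous mice, and their number, their immunoglobulin transcripts and the rest of their transcriptome are described here. A barcode counted as a B cell when it held at least 3 unique molecular identifiers (UMIs, each 1 captured mRNA molecule) of Cd79a, Cd79b and Ms4a1 together, with at least 2 of these 3 genes detected and no UMI of the T cell receptor genes Cd3d, Cd3e or Cd3g. Barcodes were first kept when their gene number lay above 200 and below 6000, with below 60000 UMIs, under 10% mitochondrial UMIs and, for B cells, under 15% of UMIs from the islet hormones (Ins1, Ins2, Gcg, Sst, Ppy). By this rule 225 of 10538 barcodes were B cells, 183 of them from virgin and 42 from multiparous islets. The rule uses measured expression, so Cd79a, Cd79b and Ms4a1 describe the members and test nothing about them.

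B cells make the antibodies of the adaptive immune system: each rearranges 1 heavy chain and 1 light chain gene, and displays the product as a B cell receptor together with the signalling partners Cd79a and Cd79b. A resting follicular B cell carries IgM and IgD and presents antigen on MHC class II. On activation it may divide in a germinal centre, change its heavy chain from Ighm to a switched class such as Ighg or Igha, and become a plasma cell, which stops presenting antigen and secretes antibody through a much enlarged endoplasmic reticulum (ER).

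The islets came from C57BL/6J wild-type female mice, 9 weeks old at the start. The multipara group had gone through 3 consecutive pregnancies and was studied 3 weeks after the last delivery, and the virgin group was age-matched. Islets were isolated with collagenase, held in culture medium with serum and dissociated with trypsin, and single cells were captured for 3′ sequencing without any sort. Each group was a single library, the labels do not say how many mice went into it, and every difference therefore compares 2 libraries, has no replicate check and cannot be told apart from a difference between the 2 preparations.

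The virgin library held 5463 barcodes and 94853806 UMIs, the multipara library 5075 barcodes and 82503776 UMIs, and 4391 and 3374 barcodes were kept. The libraries shared 7 barcode sequences, none of which was a B cell in either. B cells carried 1242193 UMIs in the virgin library and 197904 in the multipara library, with medians of 2919 and 3072 UMIs per cell. All intervals given here are 95% intervals of counting error only, exact Clopper-Pearson for shares and exact conditional binomial for ratios of UMIs.

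The genes of the rule are given first, as a description. Cd79a (chr7:24897381-24902197, + strand, GRCm38) had a UMI in 182 of 183 virgin and in all 42 multipara B cells, Cd79b (chr11:106311341-106314762, − strand), its partner in the receptor's signalling unit, in 169 and 31, and Ms4a1 (chr19:11249675-11266241, − strand), which encodes CD20, in 140 and 35. Few barcodes lay at the threshold: 1 member in each library had exactly 3 UMIs of these genes, and 5 virgin and 4 multipara barcodes that met the other limits had 2. The markers that the rule did not use were Ighd and Bank1. Ighd (chr12:113406604-113416324, − strand), the IgD heavy chain, stood at 225 CPM (UMIs scaled to a common total of 1000000, counts per 1000000) in virgin and 202 CPM in multipara B cells, and Bank1 (chr3:136053363-136326066, − strand), a B cell receptor scaffold, at 217 and 318 CPM.

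Compared with all other kept cells, 728 of 13483 genes (5.4%) were at least 4-fold higher in B cells of both libraries and 198 (1.47%) were at least 4-fold lower. The 20 genes with the highest fold fell into 4 kinds. Igha, Ighd, Ighm, Igkc, Iglc2, Iglc3 and Iglv1 are immunoglobulin genes, and Jchain and Mzb1 serve antibody assembly. Ms4a1, Bank1, Vpreb3, Cd79b, Ly6d, Fcrla, Fcer2a and Fcmr are surface or signalling genes of B cells. H2-DMb2 and H2-Ob act in peptide loading of MHC class II, and Hvcn1 encodes a proton channel. Against T cells, 53 of 1327 genes (3.99%) were at least 4-fold higher and 72 (5.43%) lower, and against macrophages 61 of 2182 (2.80%) were higher and 279 (12.8%) lower.

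Defining genes of T cells, fibroblasts, pericytes and exocrine cells were rare in the B cells, while endocrine transcripts were present in all of them. The 8 endocrine markers gave 13756 UMIs (11074 CPM) in virgin and 6804 UMIs (34380 CPM) in multipara B cells, and dendritic cell markers had a UMI in 33.9% and 33.3% of cells (176 and 22 UMIs). Of 13 T cell markers, 10 had no UMI in any B cell. Cd3d, Cd3e and Cd3g are among these by the rule itself, so their absence is no support. Cd28, Lck and Trac together gave 55 virgin and 6 multipara UMIs. The 32 and 3 UMIs of Cd28, a costimulatory receptor also known from plasma cells, all came from the immunoglobulin-rich cells (defined with the kinds of B cell). The 10 macrophage markers summed to 538 UMIs (433 CPM) in virgin and 26 UMIs (131 CPM) in multipara B cells, most of them Apoe, while C1qa had 2 and 0 UMIs. Fibroblast and pericyte markers gave 4 and 0 UMIs, acinar and duct markers 13 and 13, and erythroid markers 5 and 4. Endothelial markers gave 69 and 7 UMIs, with a UMI in 23% of virgin and 16.7% of multipara B cells and up to 19 UMIs in a virgin cell. The doublet caller marked 1 B cell, in the virgin library, and it was none of the cells of high RNA content described as immunoglobulin-rich or proliferation-high.

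B cells made up a larger part of the virgin library. The 183 virgin B cells were 4.17% of the kept cells (3.6 to 4.80%), and the 42 multipara B cells were 1.24% (0.899 to 1.68%). With a hormone limit of 5% in place of 15%, 182 virgin (4.14%) and 24 multipara B cells (0.711%) were left. Among kept cells under the hormone limit, which leaves most endocrine cells out, the shares were 19.2% of 952 (16.8 to 21.9%) and 6.99% of 601 (5.08 to 9.33%). T cells, gated on Cd3 genes, stood at 2.66% (2.21 to 3.18%) and 1.16% (0.823 to 1.58%) of kept cells. Macrophages, gated on C1q genes, lay the other way, at 1.32% (1 to 1.7%) and 2.40% (1.91 to 2.98%). B cells were 61.0% of B and T cells together in the virgin library (55.2 to 66.6%) and 51.9% in the multipara library (40.5 to 63.1%), and these intervals overlap.

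**Figure D1:**
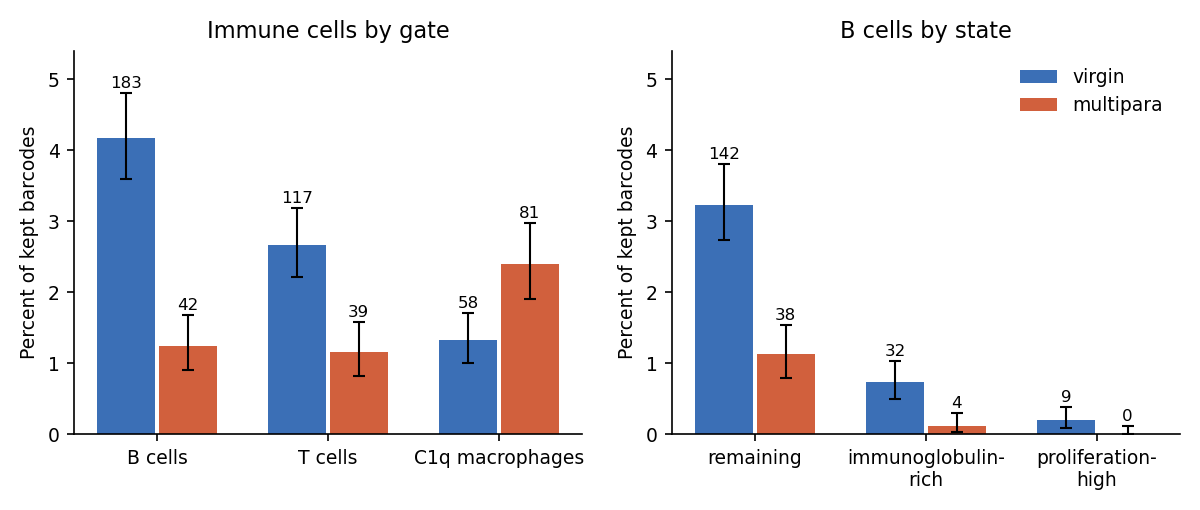
Percent of kept barcodes (y axes) for B cells, T cells and macrophages (left) and for the 3 kinds of B cell (right), with the cell number above each bar. Each bar is the single library of a group and error lines are exact Clopper-Pearson 95% intervals of counting error. Virgin B cells stand at 4.17% and multipara B cells at 1.24%, T cells lie in the same order, and macrophages stand at 1.32% and 2.4%.

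Chemokine genes of lymph node stroma moved with the B cell share. Ccl21a, a chemokine that draws CCR7-bearing lymphocytes into lymphoid tissue, had 3725 UMIs in 62 kept cells of the virgin library and none in the multipara library. Ccl19, which binds the same receptor, had 141 and 0 UMIs, and Cxcl13, the chemokine of B cell follicles, had 93 and 44. Other genes of the list did not show this: Lyve1, a lymphatic endothelial receptor, had 248 and 241 UMIs among 4391 and 3374 kept cells, Enpp2 had 7914 and 6756, Glycam1 had 1 and 1, and Chst4 had none. Within B cells the whole list of 16 such genes gave 7 and 6 UMIs. The part of these stromal cells, and of any lymphoid tissue they came from, in the B cell share was not tested.

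The B cells were not uniform. In 32 virgin and 4 multipara cells immunoglobulin transcripts took over 10% of all UMIs, and 9 further virgin cells held at least 50 UMIs of a 20-gene proliferation list. The remaining 142 virgin and 38 multipara cells are called remaining B cells. This division was made after the values were seen, on gaps in them: immunoglobulin shares jumped from 4.89% to 23.1% in the virgin library and from 3.88% to 38.8% in the multipara library, and proliferation counts outside the immunoglobulin-rich cells from 21 to 90 UMIs in the virgin library, with a maximum of 7 in the multipara library. Comparisons between the 3 kinds of cell are descriptions, with no test.

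Immunoglobulin-rich cells were 17.5% of virgin (12.3 to 23.8%) and 9.52% of multipara B cells (2.66 to 22.6%), intervals that overlap. As a share of all kept cells they were 0.729% (0.499 to 1.03%) and 0.119% (0.0323 to 0.303%). Proliferation-high cells were 4.92% of virgin B cells (2.27 to 9.13%). The multipara library had 0 of 42, which allows a share of up to 8.41%, so a difference in this share was not detectable with 42 cells. The remaining cells were 77.6% and 90.5% of B cells, or 3.23% and 1.13% of kept cells.

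RNA content differed among these cells, with overlapping ranges. Immunoglobulin-rich cells had medians of 16276 UMIs in the virgin library (7177 to 29178) and 20374 in the multipara library (17062 to 22724), proliferation-high cells had 26839 (11842 to 50652), and remaining B cells had 2632 (517 to 12197) and 2979 (1583 to 6146). Gene numbers followed, with medians of 2088 and 1928 genes, 4551 genes, and 1041 and 1073 genes in the same order. The immunoglobulin-rich cells thereby contributed 42.7% of all virgin and 40.7% of all multipara B cell UMIs, and the proliferation-high cells 18.6% of those of the virgin library, so that sums over all B cells are weighted towards few cells.

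**Figure D2:**
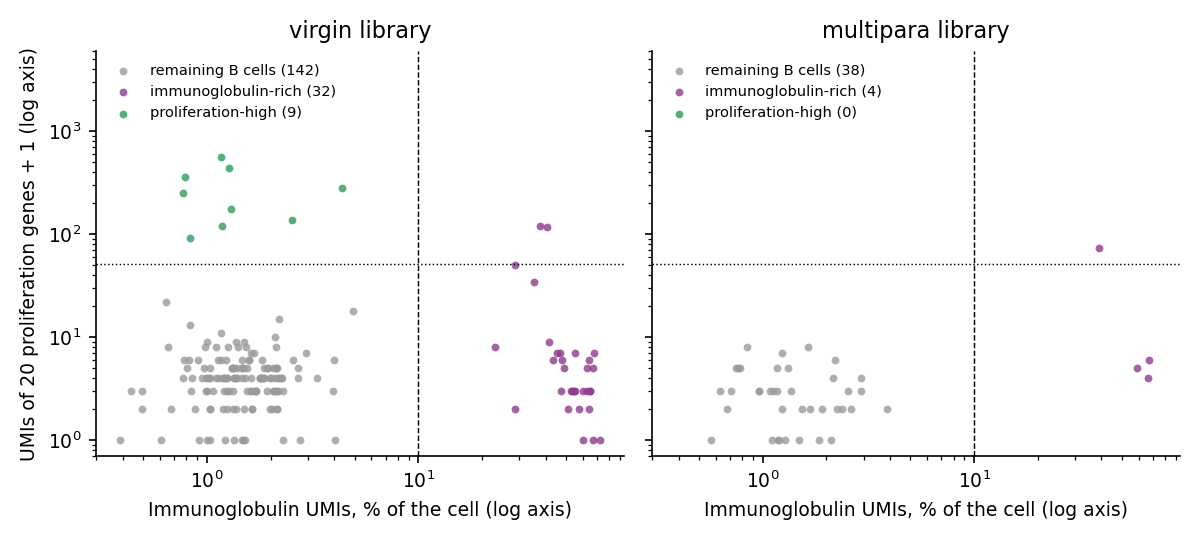
Each point is 1 B cell, placed by the share of its UMIs from immunoglobulin genes (%, log axis) and by its UMIs of the 20 proliferation genes plus 1 (log axis), with the virgin library left and the multipara library right. Lines mark 10% and 50 UMIs. The immunoglobulin-rich cells (32 and 4) and the proliferation-high cells (9 and 0) stand apart from the remaining B cells (142 and 38).

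The immunoglobulin-rich cells carried genes of plasma cells that the division did not use. Jchain (chr5:88519809-88527891, − strand), which joins IgM and IgA into polymers, had 90 to 1259 UMIs per virgin cell with a median of 465, and 156, 306, 891 and 1524 UMIs in the 4 multipara cells. Sdc1 (CD138, the usual surface marker of plasma cells) was seen in 28 of 32 virgin cells, Tnfrsf17 (BCMA, a survival receptor) in 20 and Prdm1 (the transcription factor Blimp-1) in 16. Of these 4 plasma cell markers, all were seen in 10 virgin cells, 3 in 14, 2 in 6 and 1 in 2. In the multipara library 1 cell had all 4 and the other 3 cells had 3. Xbp1, the transcription factor that expands the secretory pathway, had 2 to 68 UMIs per virgin cell with a median of 16.

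Genes of the ER folding machinery were high in these cells and genes of MHC class II antigen presentation were low. The promoters of 6 of these genes are given to show the sequence beside the expression. The first 4 hold an ER stress element, CCAAT followed by 9 bases of any kind and CCACG on either strand, the motif known to be bound by NF-Y with ATF6, and the last 2 hold the Y box CTGATTGG of class II genes, also read by NF-Y. Capitals mark the motif named for each sequence, and the Derl3 sequence also holds a Y box, left in lower case. The sequences are RefSeq promoters of GRCm38.p6, ended before the annotated gene start and written 5′ to 3′ on the strand of the gene. They are Pdia6 at chr12:17266409-17266544 (+ strand), Creld2 at chr15:88819466-88819645 (+ strand), Calr at chr8:84846935-84847111 (− strand), Derl3 at chr10:75893218-75893397 (+ strand), H2-Aa at chr17:34287824-34287943 (− strand) and H2-Eb1 at chr17:34305747-34305866 (+ strand).
Pdia6: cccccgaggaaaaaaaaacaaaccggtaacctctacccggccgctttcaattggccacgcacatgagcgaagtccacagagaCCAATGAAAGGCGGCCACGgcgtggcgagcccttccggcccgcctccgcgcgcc
Creld2: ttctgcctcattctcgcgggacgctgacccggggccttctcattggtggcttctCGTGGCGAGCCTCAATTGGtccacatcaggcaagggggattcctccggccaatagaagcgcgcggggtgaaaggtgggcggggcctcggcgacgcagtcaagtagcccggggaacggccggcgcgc
Calr: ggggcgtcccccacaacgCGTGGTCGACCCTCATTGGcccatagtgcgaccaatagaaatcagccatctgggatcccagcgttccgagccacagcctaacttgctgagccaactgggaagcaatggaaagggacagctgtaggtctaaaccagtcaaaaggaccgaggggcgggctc
Derl3: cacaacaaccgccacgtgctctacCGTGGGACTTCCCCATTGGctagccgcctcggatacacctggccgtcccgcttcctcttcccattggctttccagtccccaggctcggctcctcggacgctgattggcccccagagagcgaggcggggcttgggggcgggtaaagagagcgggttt
H2-Aa: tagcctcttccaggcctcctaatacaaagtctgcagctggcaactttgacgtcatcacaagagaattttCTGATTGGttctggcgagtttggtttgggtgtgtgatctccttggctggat
H2-Eb1: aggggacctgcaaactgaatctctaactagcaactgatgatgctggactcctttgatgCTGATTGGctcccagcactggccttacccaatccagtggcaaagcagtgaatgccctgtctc

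The ER stress element was found in 37 of 32851 mouse promoters (0.113%) in the 250 bases before the start, in 8 of 24 promoters of the ER folding list (33.3%), in 2 of 19 of the plasma cell list and in none of the class II or B cell identity lists. The Y box was found in 1258 promoters (3.83%), in 4 of 13 class II promoters (30.8%) and also in 11 of 24 ER folding promoters (45.8%). Its last letters are the reverse complement of the CCAAT that opens the other motif, so the motifs can overlap. A match describes these letters and does not show a site in use.

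Levels of immunoglobulin-rich and remaining cells were compared as CPM without immunoglobulin genes, so that the antibody transcripts do not dilute the rest. At least 4-fold higher in both libraries were 47 of 540 genes (8.70%), and 19 (3.52%) were lower. The median log2 ratio over all genes compared was -0.32 for virgin and -0.28 for multipara cells. A gene scarce in 1 kind of cell reached the limit on UMIs only where it was high in the other. The number of list members beyond 4-fold is therefore no support. Of the 15 plasma cell genes, 8 had enough UMIs to be compared, and these 8 were at least 4-fold higher in both libraries. Xbp1 went from 63.4 CPM in remaining to 2357 in immunoglobulin-rich virgin cells and from 69.1 to 2663 CPM in multipara cells. Txndc5, a disulfide isomerase, went from 69.8 to 3614 and from 51.8 to 3117 CPM, and Mzb1, a cochaperone of IgM assembly, from 461 to 8072 and from 380 to 6991 CPM.

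Of the 30 ER folding genes, 19 had enough UMIs to be compared, and 15 were at least 4-fold higher in both libraries, beside 47 of 540 over all genes. Creld2, a disulfide isomerase of the unfolded protein response, went from 40.2 to 1130 CPM in virgin cells and from 43.2 to 938 CPM in multipara cells. Hsp90b1, the ER chaperone GRP94, went from 448 to 5491 and from 475 to 4631 CPM, and Pdia6 from 184 to 1095 and from 259 to 1090 CPM. Hspa5, the chaperone BiP, stood at 630 and 2786 CPM in virgin and 639 and 2270 CPM in multipara cells, and Calr, a lectin chaperone, at 791 and 1788 and at 821 and 1907 CPM, which was under 4-fold. Derl3, of the degradation channel, had 29.6 and 658 CPM in virgin and 8.64 and 757 CPM in multipara cells on too few UMIs to be counted.

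Class II antigen presentation genes lay the other way. Of 15 class II genes 8 had enough UMIs to be compared, and 3 were at least 4-fold lower in both libraries, beside 19 of 540 over all genes. H2-Aa, the class II α chain, went from 4643 to 797 CPM in virgin and from 4675 to 182 CPM in multipara cells, and the peptide exchange genes H2-DMa and H2-DMb2 from 751 to 92.9 and from 535 to 73.5 CPM in virgin cells and to no UMI in the 4 multipara cells. H2-Eb1 was at 3611 and 964 CPM in virgin and 3448 and 515 CPM in multipara cells, and Cd74, the invariant chain, at 16422 and 7554 and at 15192 and 10563 CPM, neither of them 4-fold lower in both libraries. Of the 22 B cell identity genes 10 were compared and 3 were at least 4-fold lower. Bank1 went from 503 to 50.3 and from 536 to 30.3 CPM. Ms4a1, a gene of the rule, stood at 924 and 143 CPM in virgin and 890 and 60.5 CPM in multipara cells. None of 7 class I genes and none of 77 cytosolic ribosomal protein genes compared passed 4-fold in either direction. The class I genes were not low: their median log2 ratio was 1.27 in virgin and 0.34 in multipara cells, beside -0.32 and -0.28 over all genes.

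**Figure D3:**
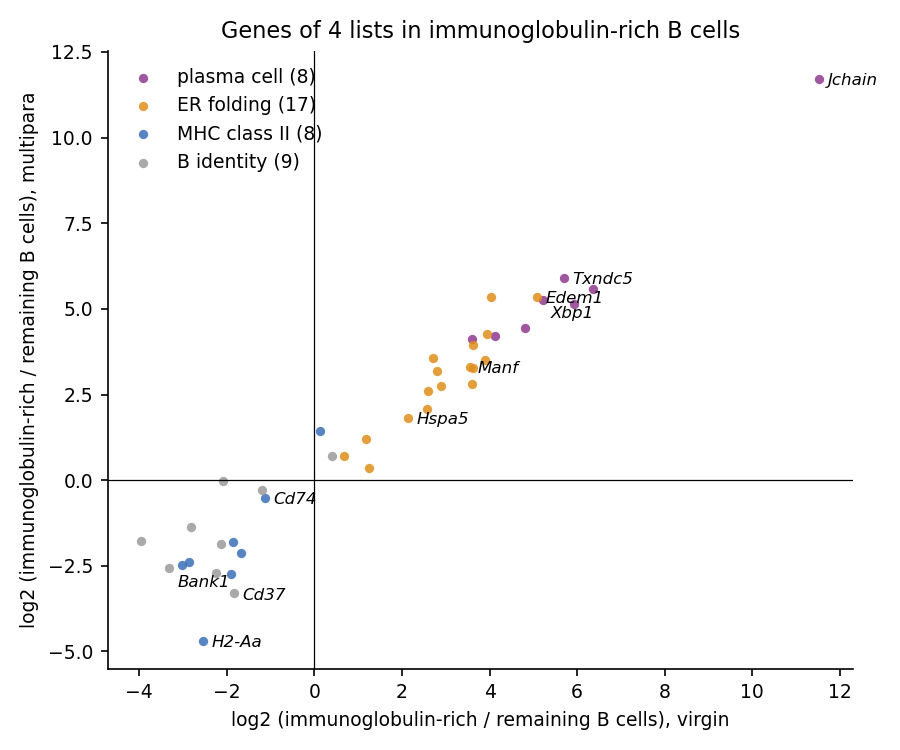
Each point is 1 compared gene of 4 lists, with the log2 ratio of immunoglobulin-rich over remaining B cells (CPM without immunoglobulin genes) in the virgin library on the x axis and in the multipara library on the y axis. A gene on 2 lists is drawn once. A gene with under 3 UMIs in 1 set of cells is placed against the floor of 3 counts, so its ratio is a bound. Examples in the multipara library are Jchain, H2-DMa and H2-DMb2 with no UMI and Bank1 with 1. Plasma cell and ER folding genes lie above 0 on both axes and most class II and B cell identity genes below 0.

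The immediate early gene Jun differed between the immunoglobulin-rich cells of the 2 libraries. All 32 virgin cells held Jun, with 800 UMIs together and 3096 CPM without immunoglobulin genes, whereas the 4 multipara cells held 9 UMIs (272 CPM). In remaining cells Jun stood at 178 and 320 CPM on the same scale. Its usual partner Fos had 71 UMIs in 21 of the virgin immunoglobulin-rich cells. Slpi, a secreted protease inhibitor, had 512 UMIs in 16 of the 32 virgin cells and 445 UMIs in 2 of the 4 multipara cells.

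Each immunoglobulin-rich cell was dominated by a single heavy chain gene. The leading heavy chain gene held at least 97.4% of heavy chain UMIs in each virgin cell and at least 98.5% in each multipara cell. It was Ighm in 24 of the 32 virgin cells, Ighg2b in 3, Ighg2c in 2, Ighg3 in 2 and Igha in 1. In the 4 multipara cells it was Igha in 2 (4556 and 2836 UMIs), Ighg2c in 1 (1425 UMIs) and Ighm in 1 (2094 UMIs). Ighe had no UMI in these cells.

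The remaining B cells were IgM cells. Ighm led in 126 of 142 virgin and 36 of 38 multipara cells and Ighd in 8 and 1, and in 5 virgin cells Ighm and Ighd were equal. A switched gene led in 1 cell of each library, Ighg2b with 60 UMIs in the virgin and Ighg2c with 4 UMIs in the multipara library, and 2 virgin cells had no heavy chain UMI. Ighm was also seen in cells that should lack it. It had a UMI in 97.9% and 100% of remaining B cells at medians of 2632 and 2979 UMIs per cell, but also in 41.9% and 43.6% of T cells (medians 3417 and 3022 UMIs) and in 46.6% and 70.4% of macrophages (medians 5872 and 6778 UMIs). The 9 proliferation-high cells were led by Ighm in 5, Ighg2b in 2 and Ighg2c in 1, and 1 had a single UMI each of Ighg2b and Ighg2c. Counting a cell as switched at 3 UMIs of any Ighg, Igha or Ighe gene, with or without Ighm or Ighd, 138 of 142 virgin (97.2%) and 37 of 38 multipara remaining cells (97.4%) were unswitched.

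Kappa light chain dominated. All 32 virgin and 4 multipara immunoglobulin-rich cells had at least 90% of light chain constant UMIs from Igkc, with 95.3 to 99.6% in the virgin cells and 1971 to 11683 Igkc UMIs per cell. The remaining cells looked less exclusive. Of those with at least 5 light chain UMIs, 31.2% of 141 virgin (23.7 to 39.5%) and 34.2% of 38 multipara cells (19.6 to 51.4%) were kappa by the 90% rule. Lambda cells by the same rule were 5.67% (2.48 to 10.9%) and 2.63% (0.0666 to 13.8%). The other 63.1% and 63.2% reached 90% for neither chain and are called mixed. Cells with any UMI of each chain were more common than this class. Among all 142 virgin remaining cells, 138 held Igkc and 137 a lambda constant gene. Among all 38 multipara remaining cells, 37 held Igkc and 37 a lambda constant gene.

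The mixed class was mostly cells with Igkc ahead. Kappa took 80 to 90% of light chain UMIs in 42 virgin and 20 multipara remaining cells, 50 to 80% in 44 and 2, 20 to 50% in 3 and 1, and under 20% in 8 and 2. Iglc2, a lambda constant gene, had a UMI in 90.8% of virgin (84.9 to 95%) and 86.8% of multipara remaining cells (71.9 to 95.6%), against 1 of 117 and 0 of 39 T cells and no macrophage. Igkc had a UMI in 22.2% and 10.3% of T cells and in 12.1% and 1.23% of macrophages, and 3 of 117 virgin T cells and no multipara T cell reached 5 light chain UMIs. The lambda constant genes are near-identical copies, so reads may be divided among them.

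**Figure D4:**
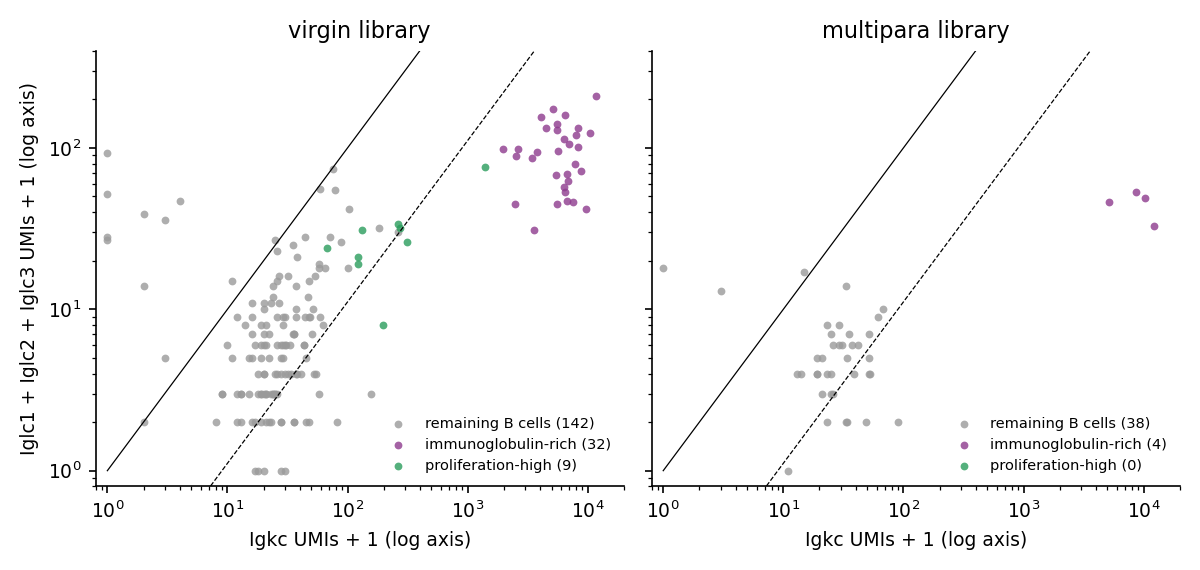
Each point is 1 B cell of the virgin (left) or multipara (right) library, with Igkc UMIs plus 1 on the x axis and the sum of Iglc1, Iglc2 and Iglc3 UMIs plus 1 on the y axis, both log axes. The solid line marks equal kappa and lambda UMIs and the dashed line the 90% kappa limit. The immunoglobulin-rich cells lie beyond the dashed line at 1971 or more Igkc UMIs, and most remaining cells lie between the lines or near the dashed one.

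Variable segments could be read in the immunoglobulin-rich cells only. The 32 virgin cells held UMIs of 22 Ighv and 24 Igkv segments. An Igkv segment reached 5 UMIs in 29 of them, with 17 different leading segments, and no segment led in more than 4 cells (Igkv5-39). An Ighv segment did so in 18 cells, with 13 leading segments and at most 4 cells for 1 segment (Ighv3-6). Of the 4 multipara cells, 3 had an Igkv segment at 5 UMIs, each a different one. Iglv1, a lambda segment, had 1019 UMIs in 29 of the 32 virgin cells, although all of them were kappa by their constant gene. No remaining cell reached 5 UMIs of any segment, and near-identical segments are uncertain one by one.

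The 9 proliferation-high cells, all of the virgin library, carried genes of the germinal centre beside the list that selected them. With a list of 20 proliferation genes as the selector, Mki67 (94 UMIs against 2 in the 142 remaining virgin cells) and Top2a (130 against 6) are given as description. Outside it, Basp1 had 98 UMIs against 7 (log2 ratio 4.87), Mef2b, a partner of the germinal centre regulator Bcl6, 39 against 0, and the death receptor Fas 29 against 5 (3.59). S1pr2, which confines cells to the germinal centre, had 24 UMIs in 5 of the 9 cells against 0, and Gcsam 25 in 3 cells against 0. Bcl6 itself had 3 UMIs against 7. Cells held 1 to 10 of the 11 germinal centre genes, with a median of 6.

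At least 4-fold higher in proliferation-high than in remaining virgin cells were 182 of 2879 genes (6.32%), and 200 (6.95%) were lower. Genes of recirculating cells were among the lower ones. The transcription factor Klf2 had 11 UMIs against 642 (log2 ratio -4.81), the lymph node homing receptor Ccr7 3 against 201 (-5.01) and the egress receptor S1pr1 3 against 61 (-3.29). Among plasma cell markers Jchain had 107 UMIs in 6 of the 9 cells, while Sdc1 and Tnfrsf17 had none. The macrophage gene C1qb had 18 UMIs in 1 of these cells. Of the immunoglobulin-rich cells, 2 of 32 virgin and 1 of 4 multipara cells also held at least 50 proliferation UMIs.

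Between the libraries, summed over all B cells, 118 of 4058 genes (2.91%) were at least 2-fold higher in the multipara library and 663 (16.3%) at least 2-fold lower. In remaining B cells alone the counts were 47 of 2258 (2.08%) and 168 (7.44%). The sums over all B cells follow the rarer kinds of cell, so values for the remaining cells stand beside them. TMM scaling in place of total UMIs shifted all log2 ratios by 0.02.

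Heavy chain genes gave the extremes in all B cells. Igha had 2175 virgin and 7394 multipara UMIs (log2 ratio 4.42), of which 2 multipara immunoglobulin-rich cells held 4556 and 2836. Ighg2b had 10822 and 19 UMIs (-6.50), Ighg3 2505 and 20 (-4.32) and Ighm 53477 and 2371 (-1.85). In remaining cells Ighm stood at 2703 and 2096 CPM and Igkc at 9565 and 9951 CPM. Jun, with 893 and 46 UMIs, was at -1.63 over all B cells but at 0.85 in the remaining cells, where it had 84 and 37 UMIs. Of the 20 proliferation genes, 18 were compared and 16 were at least 2-fold lower over all B cells (median -1.93), beside 1121 of 6654 over all genes. The same genes selected the proliferation-high cells, which held 2400 of the list's 3295 virgin UMIs. In remaining cells the median was -0.28 over the 5 genes that could be compared.

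In remaining cells, the medians of several B cell gene lists lay within 0.21 of 0 on the log2 scale, with single genes on either side. Other lists lay further out, on few genes: -0.28 for marginal zone, -0.54 for immunoglobulin constant genes and 0.39 for transitional or immature cells. The memory or age-associated list stood at -0.42 and the B1 list at -1.14. The summed ratio of the marginal zone list was -0.44 (-0.70 to -0.19). Over all 5003 genes with at least 10 UMIs the median log2 ratio in remaining cells was -0.08. The median was -0.10 for 22 B cell identity genes, -0.21 for transcription factors, -0.14 for receptor signalling, -0.09 for MHC class II and -0.09 for the follicular list, whose summed ratio was -0.18 (-0.34 to -0.02). Of 17 transcription factors 3 were at least 2-fold lower and 0 higher, on few UMIs: Tcf3 had 32 and 2, Pou2af1, a coactivator of immunoglobulin genes, 61 and 6, and Hhex 29 and 3. Over all genes 721 of 5003 were at least 2-fold lower. The summed UMIs of a list weight its abundant genes, and in remaining cells they differed in sign from the median for B cell identity (0.11), MHC class I (0.07) and the germinal centre list (-1.10 against a median of 0.34 on 2 genes). Cd79a stood at 2626 virgin and 2496 multipara CPM, Ms4a1 at 909 and 878 CPM and Bank1 at 495 and 528 CPM. Cd74 was at 16160 and 14978 CPM, H2-Aa at 4569 and 4609 CPM, and the transcription factors Mef2c at 870 and 869, Ebf1 at 828 and 886 and Klf2 at 1336 and 1235 CPM. The follicular genes Fcer2a (CD23) and Ccr7 stood at 256 and 290 and at 418 and 426 CPM.

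Some surface genes outside the rule did differ in remaining cells beyond counting error. Cd79b is a gene of the rule, which shapes its level among members, so it is given as description only. It stood at 1117 and 613 CPM (537 and 72 UMIs, log2 ratio -0.86, interval -1.24 to -0.51), with its partner Cd79a at -0.07. Ighd had 560 and 341 CPM (269 and 40 UMIs, -0.72, -1.23 to -0.23), and a UMI in 73.9% (65.9 to 80.9%) and 60.5% (43.4 to 76.0%) of cells against 0.855% and 0% of T cells. With every cell thinned to 1800 UMIs (10 virgin and 5 multipara cells were shallower and dropped), the Ighd shares were 65.9% and 42.4%. Iglc1 was at -1.77 (321 and 23 UMIs) and Iglc2 at -0.89 (784 and 103 UMIs). Shares of cells did not follow these sums: after thinning Iglc1 had a UMI in 27.3% of virgin and 30.3% of multipara cells and Iglc2 in 81.8% and 78.8%, and 1 virgin cell alone held 44 Iglc1 UMIs. Higher in the multipara library were Ly6d (1883 and 2454 CPM, 0.38, 0.19 to 0.58), the surrogate light chain relative Vpreb3 (241 and 383 CPM, 0.67, 0.14 to 1.18), the tetraspanin Cd37 (689 and 886 CPM) and the migration receptor Gpr183 (171 and 273 CPM).

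Activation genes leaned towards the multipara library. Of 24 compared in remaining cells 20 were higher, 6 of them at least 2-fold, with a median of 0.42, beside 2293 of 5003 higher and 351 at least 2-fold higher over all genes. Over all B cells 21 of 27 were higher with a median of 0.56, beside 2675 of 6654. Rel, an NF-κB subunit, stood at 612 and 767 CPM in remaining cells, the maturation marker Cd83 at 520 and 622, the receptor-induced factor Nr4a1 at 331 and 375 and the costimulatory ligand Cd86 at 146 and 230 CPM. After thinning, the share of cells with a UMI was 64.4% and 57.6% for Rel, 51.5% and 66.7% for Cd83, 39.4% and 39.4% for Nr4a1 and 25.8% and 48.5% for Cd86, so that Rel went against its level and Nr4a1 was equal. Cd69, an early activation marker that also holds cells in tissue, went the other way (-0.76), with a UMI in 49.3% and 28.9% of cells and 35.6% and 21.2% after thinning. Cd69 was also lower in multipara T cells (-2.20) and macrophages (-0.87). After thinning each cell to 1800 UMIs the median of the activation list over all B cells was 0.09.

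Other groups stood at various distances from the -0.08 of all genes. The ER folding list had a median of 0.06 in remaining cells, with 17 of 29 genes higher (2293 of 5003 over all genes), against -0.29 over all B cells with 3 of 30 higher (2675 of 6654). The medians in remaining cells were -0.01 for MHC class I, -0.10 for cytosolic ribosomal proteins, -0.10 for homing and 0.19 for the dissociation response. The interferon response list had 0.34, with 10 of 16 genes higher and a summed ratio of 0.13 (-0.04 to 0.30). A list of 9 stress genes, which the study named in β cells, partly from these libraries, so that the list is not independent evidence, summed to 195 and 79 UMIs (406 and 673 CPM, 0.73, 0.33 to 1.11). The highest multipara cell held 20 of the 79 UMIs. The list stood at 387 and 312 CPM in T cells, at 3028 and 3424 in macrophages and at 1536 and 2043 in all other kept cells. Among the 9 genes, heat shock gene Hspa1a had 7 virgin UMIs in 7 remaining cells and 18 multipara UMIs in 5 (3.4, 2.07 to 4.90), and was at 0.69 in macrophages, with 98 and 279 UMIs. The stress gene Nupr1 had 1 UMI in 1 virgin cell and 9 UMIs in 7 multipara cells (5.2, 2.35 to 10.7).

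**Figure D5:**
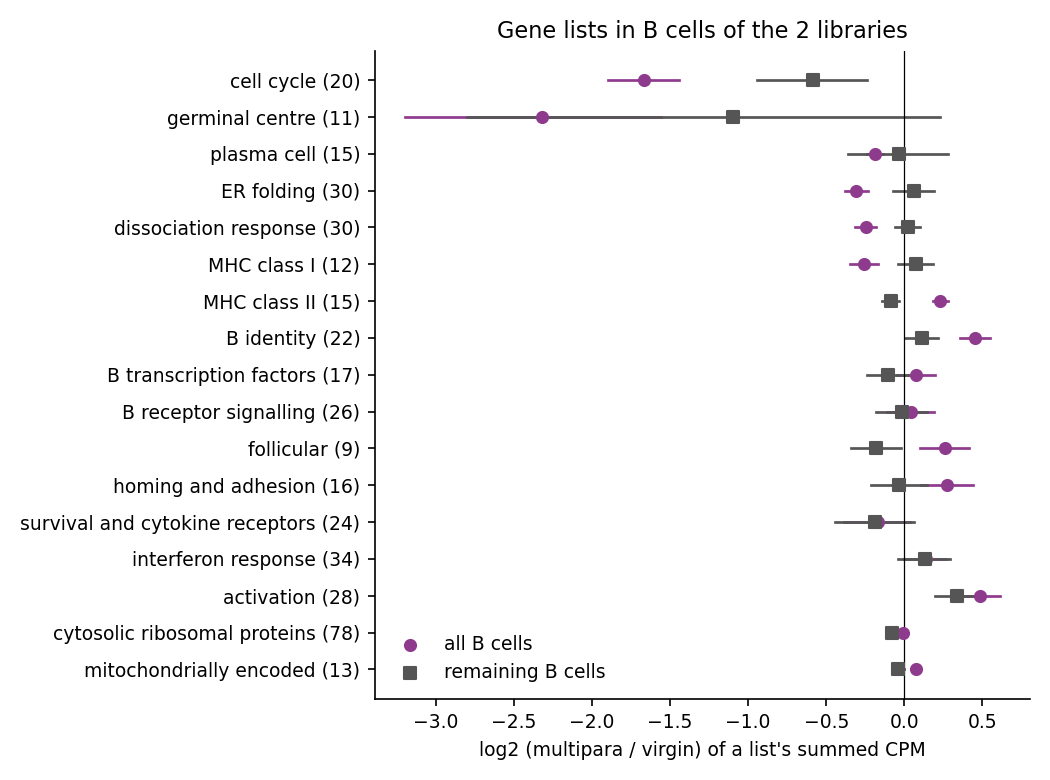
Log2 ratio of multipara over virgin (x axis) of the summed CPM of each gene list (rows, with the number of genes), for all B cells (circles) and remaining B cells (squares), with exact 95% intervals of counting error. The proliferation list (cell cycle) stands at -1.67 over all B cells and -0.58 over remaining cells, and the activation list at 0.49 and 0.34.

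Genes of memory, age-associated and B1 cells summed lower in the multipara library, on few genes and few cells. In remaining cells the summed log2 ratio was -1.11 for the memory and age-associated list, of which Apoe gave 362 of 538 virgin and 21 of 61 multipara UMIs. Of its 6 genes compared 3 were higher, and its genes had a UMI in 62.7% and 63.2% of cells. The B1 list summed to -1.16. In it S100a6 stood at 216 and 76.7 CPM (-1.50), with 44 UMIs in 1 virgin cell and a UMI in 6.82% and 6.06% of thinned cells, and Bhlhe41, a regulator of B1 cells, had 35 and 1 UMIs. Plac8, which is on the marginal zone list, stood at 1069 and 733 CPM (-0.55), but 1 virgin cell held 123 of its UMIs. After thinning it had a UMI in 50.8% of virgin and 60.6% of multipara cells. Cd5, the classical B1 marker, and Itgax, a marker of age-associated B cells, had no UMI in any B cell. Rag1, Rag2, Dntt, Igll1, Vpreb1 and Vpreb2, the genes of B cell precursors, had none either.

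Apoe (chr7:19696109-19699188, − strand), a lipid carrier abundant in macrophages, was the lowest gene of the remaining cells by rank among those above 200 CPM, with 362 virgin and 21 multipara UMIs in 47 and 8 cells (-2.07). It was concentrated in few cells: 11 of the 142 virgin cells had at least 5 Apoe UMIs and held 299 of the 362. These 11 cells had no UMI of the macrophage genes C1qa and Lyz2. They stood at 2738 CPM of Plac8 against 850 in the other virgin remaining cells, at 53.7 against 283 CPM of Fcer2a and at 161 against 612 CPM of Ighd. Ccr7, another follicular gene, was higher in them, at 573 against 398 CPM. Of the B1 list, S100a6 had no UMI in them against 245 CPM, while Bhlhe41 stood at 143 against 63.6 CPM. Their median was 5255 UMIs per cell against 2583. In the multipara library 2 of 38 cells had at least 5 Apoe UMIs. This set was chosen on Apoe after the values were seen.

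Hormone transcripts were the other large difference, and they were not particular to B cells. Ins2 stood at 10519 virgin and 33058 multipara CPM in remaining cells (1.65), with Ins1 at 1.70 and Iapp at 1.45. Ins2 was also higher in multipara T cells (1.13) and macrophages (1.06). The median hormone share of UMIs was 1.65% and 4.42% in B cells, 1.74% and 4.18% in T cells and 1.33% and 2.36% in macrophages, and 0.577% and 0.771% in the immunoglobulin-rich cells.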

How the data were processed

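Per the labels and the submitters' processing notes, islet cells were profiled with 10x Chromium 3′ v3.1 chemistry, and the authors aligned reads and made the count matrices with Cell Ranger 3.1.0 on GRCm38 (mm10). Seurat 3.0 is also named there. The deposited values are raw UMI counts of 31053 genes for each called barcode, of which 30934 identifiers matched GENCODE M21. The total was 94853806 counts (virgin) and 82503776 (multipara). In folds between cell types or kinds of B cell, a lower count under 3 was raised to a floor of 3 counts, so such folds are bounds. The log2 ratios of multipara over virgin used no floor.

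Counts were summed over B cells, T cells (Cd3d, Cd3e, Cd3g) and macrophages (C1qa, C1qb, C1qc) by gates of 3 UMIs on 2 or more genes. Cells were scaled to CPM of their own sum. Genes whose UMIs in the 2 libraries summed to 30 or more were compared between libraries and called at 2-fold. Between cell types or kinds of B cell, genes were called at 4-fold. They needed 30 or more UMIs in the compared cells of each library. Proliferation-high cells were compared in the virgin library alone, with the limit applied there. List medians used genes with at least 10 UMIs. With 1 library per group no test between groups exists and no p-value was computed. Doublets were called with Scrublet in scanpy 1.11.5 (61 of 4391 and 44 of 3374 kept cells) and kept, since 1 B cell was among them. The 7 barcodes found in both libraries were kept. Other tools were Python 3.11.15, numpy 2.4.6, scipy 1.17.1 and edgeR 4.0.16 (TMM factors only).

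Members, gene lists and comparisons were chosen with earlier results of these data known, and the kinds of B cell, the Apoe set and genes singled out for them after values were seen. Named genes were the rule's genes and markers, list members with most UMIs or none, the 12 highest and 12 lowest ratios at 200 CPM, the 20 leading genes over other cells at 100 CPM, the 20 most abundant genes and the leading gene of each immunoglobulin class. Of the listed symbols 3 were not among the genes. The ratio script was tested on simulated data of all B cells (4058 genes): 4-fold increases passed 2-fold in 98.1% and 4-fold decreases in 89.8%, and 8.09% of unchanged genes did, against 6.07% of unchanged genes in remaining cells (2258 genes). Promoters are from RefSeq, GRCm38.p6.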

Additional observations from a re-analysis of the deposited data

Results flagged for a closer look

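Immunoglobulin transcripts also filled barcodes that the B cell rule leaves out. In the virgin library 12 barcodes outside the rule had over 10% of their UMIs from immunoglobulin genes, and the multipara library had 0. Of the 12, 7 fell short of the limit on Cd79a, Cd79b and Ms4a1 and 5 held 15% or more hormone UMIs, with some barcodes under both headings. Another 2 met both of these limits but held a Cd3 UMI. The 12 were no members. Those of them that met the limits for kept barcodes counted among the other kept cells where B cells were compared with those. The B cell rule itself gave 32 virgin and 4 multipara immunoglobulin-rich cells.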

How the results depend on the processing

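Of the main values, 414 stayed within their limits and 62 moved under the other settings tried, of which 3 were added after seeing the data (remaining cells only, without immunoglobulin-rich cells, without proliferation-high cells). Of values for single genes, 248 stayed, 86 moved and 6 reversed. No paired analysis was possible because each group is 1 library and the labels give no replicate numbers. Causes were not tested beyond what each alternative leaves out.

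A hormone limit of 5% left 24 multipara B cells (0.711% of kept cells) and moved list medians to -0.206 for B cell identity, -0.449 for transcription factors, -0.106 for ER folding, -0.141 for ribosomal proteins and -0.0771 for plasma cell genes. At 2-fold instead of 4-fold, 83, 148 and 1638 genes were higher and 159, 458 and 662 lower than in T cells, macrophages and other kept cells. A minimum of 10 UMIs gave 481 genes 2-fold higher and 1620 lower in the multipara library, a minimum of 60 UMIs 35 and 276, and thinned cells 40 and 113, with list medians of -0.0968 for class I and 0.0874 for activation. Weighting cells equally gave -0.137 for class I and -0.772 for plasma cell genes, and scaling without immunoglobulin, hormone and mitochondrial genes 0.0595 for ribosomal proteins.

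Remaining cells only gave 47 genes higher and 168 lower, list medians of 0.0568 for ER folding, -0.00923 for class I, -0.0989 for ribosomal proteins and 0.338 for the interferon response, and reversed H2afz (0.00144), Iglv1 (1.03) and Jun (0.851). In those cells 97.2% of virgin and 97.4% of multipara cells were unswitched, 0.704% and 0 were switched without Ighm or Ighd, 0.704% of virgin cells were switched with them, and 31.2% of virgin cells were kappa and 63.1% mixed. Without immunoglobulin-rich cells the medians were -0.0547 for class I, 0.389 for the dissociation response and 0.293 for interferon, Iglv1 (1.01) and Jun (1.27) reversed, 92.7% of virgin and 97.4% of multipara cells were unswitched, 2.65% and 0 were switched alone, 2.65% of virgin cells were switched with Ighm or Ighd, and virgin cells were 31.3% kappa and 63.3% mixed. Without proliferation-high cells 268 genes were lower, the medians were 0.056 for ribosomal proteins and -0.713 for plasma cell genes, and H2afz (0.122) reversed.

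With the light chain limit at 80%, 69.2% of virgin and 88.1% of multipara B cells were kappa and 26.4% and 7.14% mixed. With a switched gene at 1 UMI, 78.1% of virgin cells were unswitched and 14.8% carried both, and at 10 UMIs 3.83% carried both. Thinning gave shares of remaining cells with a UMI of 66.7% for Bank1, 35.6% for Cd69 and 36.4% for Fcer2a in the virgin library and 3.03% for Cr2 and 42.4% for Ighd in the multipara library. The multipara values rest on 42 cells and 197904 UMIs, against 183 cells and 1242193 UMIs in the virgin library.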
